A study of Mus musculus with 10 samples.

Results

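Agilent's mouse expression array carried, besides its gene probes, a large block of probes that were designed against stretches of chromosome and are annotated only by coordinates. Of 55681 non-control probes on the array, 16194 had such an annotation, made of a chromosome, a start, an end and, for nearly all, the suffix F or R. Of these, 5634 were kept because the scanner software flagged their spots as well above background in at least 75% of the mice of 1 or both groups. The kept probes lay in 2280 of the 3543 distinct intervals, and they made up part of the 29576 probes of any kind that passed the same rule. All coordinates are those of the array's annotation, on mouse build mm9. No gene annotation of that build was used, so whether an interval lies between genes and whether its RNA is noncoding were not checked here. The files do not say which transcript strand an F or an R probe measures.

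RNA came from the livers of 10 male TG221 mice, which carry a miR-221 transgene on a B6D2F2 background, and the labels also give the tissue as hepatocellular carcinoma. The promoter of the transgene is not given in the sources used here. Every mouse was gavaged with carbon tetrachloride (CCl4), a liver toxin, at 20% by volume in olive oil, 3 times weekly over 14 weeks, from an age of 4 to 6 weeks. In 6 mice metformin, a drug that lowers liver glucose output, was given daily at 300 mg/kg from 3 weeks after the first CCl4 dose, 4 mice had CCl4 alone, and livers were taken at 24 weeks. No mouse without CCl4 and none without the transgene was analysed here, so a difference below is between livers that share both. Below, M1 to M6 are the metformin mice and C1 to C4 the mice on CCl4 alone, with 1 array each.

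Long noncoding RNAs are transcripts that are not known to encode a protein. Many are spliced and polyadenylated like messenger RNAs, most are present at low levels and in few tissues, and the function of most is not known. A number of them are transcribed near, or on the opposite strand of, a protein-coding gene, and strand-specific probes are used to tell such transcripts apart.

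All 10 hepatocyte markers were well above background on all arrays, with a mean log2 signal of 9.48 to 9.78 over the list in metformin livers and 9.72 to 9.98 in CCl4 livers, and 2 of the 10 were called lower with metformin. Values throughout are log2 of the processed spot intensity minus the array's 75th percentile. That percentile lay at an intensity of 237 to 363. The 6 metformin arrays shared 1 slide and the 4 CCl4 arrays another, and slide and metformin cannot be told apart. Within the metformin slide, M1 and M2 lay in row 1, as all CCl4 arrays did on theirs, and M3 to M6 lay in row 2. Over the 5634 kept interval probes, the Pearson r of 2 arrays was 0.945 to 0.978 for mice of the same group and 0.885 to 0.934 for mice of different groups. Their first principal component, with 49.1% of the variance, set the groups apart. These correlations run across probes, which share arrays and are not independent replicates.

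Between 32.1% and 37.3% of the 16194 interval probes were well above background on an array, against 58.9% to 62.1% of the other probes. In the metformin livers 6017, 6033, 5595, 5548, 5795 and 6024 interval probes were detected in M1 to M6. In the CCl4 livers 5869, 5231, 5199 and 5631 were detected in C1 to C4. The groups overlapped in this number, with C1 above 3 of the metformin arrays. Detection on all 10 arrays was found for 4064 interval probes, on none for 8318, and on 1 to 9 arrays for 3812. Fewer interval probes than other probes passed the rule (34.8% against 60.6%).

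**Figure D1:**
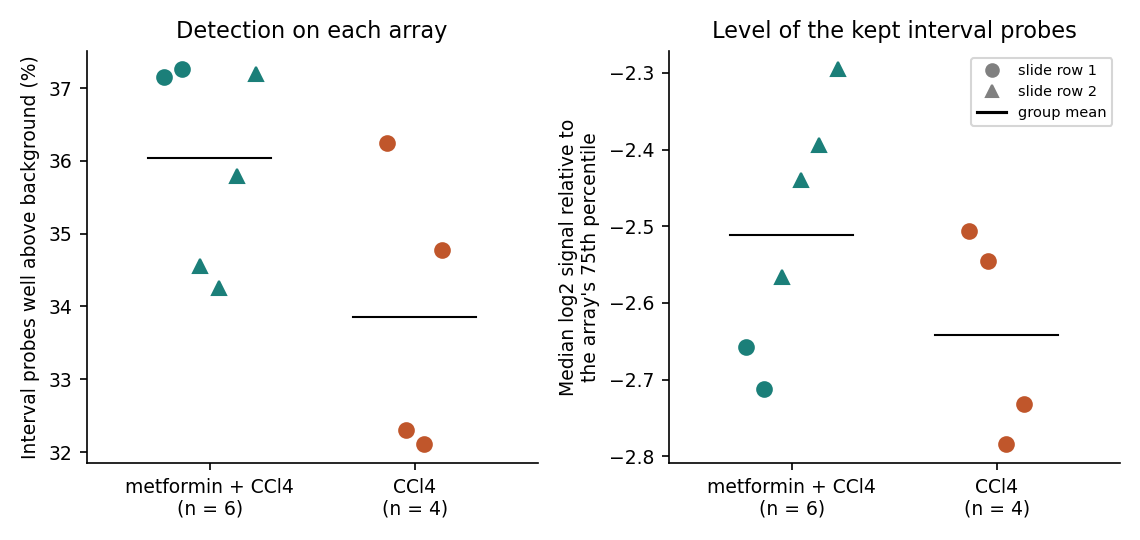
Left, the share of the 16194 interval probes well above background on each array; right, the median log2 signal of the 5634 kept interval probes relative to the array's 75th percentile. Each point is 1 mouse liver, the line is the group mean, and the symbol gives the slide row; metformin arrays of row 2 have a median of -2.57 to -2.30 and those of row 1 of -2.71 and -2.66.

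An interval held 1 to 20 probes, with a median of 3, and was 62 to 7128490 bp long. Intervals with a kept probe had a median length of 10326 bp and those without one of 2759 bp. The chance of a kept probe rose with the number of probes: 40.7% of the 428 intervals with 1 probe had one, and 89.7% of the 1008 intervals with 5 or more. Several intervals overlap each other, and merging them left 2226 loci, 1563 of them with a kept probe. Probes of 1 interval share a target region and arrays and are not replicates of a condition.

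Of the kept probes, 4609 passed the rule in both groups, 553 only through the metformin group and 472 only through the CCl4 group. Detection was absent on every CCl4 array for 125 kept probes, 50 of which were detected on all 6 metformin arrays. The reverse held for 65, of which 37 were detected on all 4 CCl4 arrays. Just inside the limit, 466 probes had a median signal of -4.35, and just outside it 493 probes had a median of -4.60. The kept interval probes were dim: their median signal was -2.62, against 0.17 for the other kept probes. Their values also scattered more between mice of a group, with a median residual SD of 0.36 against 0.23.

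About 1 in 3 of the kept interval probes differed between the groups, more often upward with metformin. The test was limma, which fits a linear model to each probe with a shared estimate of the spread; at an adjusted p under 0.05 it called 2026 of 5634 (36.0%, against 45.2% of all kept probes). Of these, 1321 were higher (23.4%, against 26.7% of all) and 705 lower (12.5%, against 18.5% of all). At an unadjusted p below 0.05 the number was 2513 (44.6%, against 52.9% of all). In 1211 interval probes the 6 metformin values did not overlap the 4 CCl4 values (21.5%, against 33.4% of all). In bulk liver, fewer cells of a type and less RNA per cell cannot be told apart.

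Rises of at least 2-fold made up a larger share of the interval probes than of all kept probes, but not under every correction. Of the interval probes, 548 were called with a rise of that size (9.73%, against 6.36% of all kept probes), and 295 with a fall (5.24%, against 5.43%). These counts include probes kept only through the group where they are high. Over the probes detected in both groups, 318 of 4609 interval probes rose 2-fold or more (6.9%, against 5.1% of all such probes) and 136 fell (2.95%, against 4.19%). With normexp background correction the rises came to 1.62%, against 1.95% of all. With slide row as a covariate they came to 5.57%, against 5.12% of all, and the falls to 6.05%, against 5.49%. With spike-in scaling the rises came to 2.98%, against 1.86% of all, and the falls to 16.1%, against 18.8%. The median change was 0.14 for interval probes, 0.07 for other kept probes and 0.08 for all. In the dimmest 25% of all kept probes, which held 48.8% of the interval probes, 33.5% of them and 37.2% of the others were called. In the brightest 25%, which held 5.27%, the shares were 45.5% and 51.9%.

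The balance of rises and falls moved with the scaling and with the slide row. Scaling to spike-in transcripts put the median change of all kept probes at -0.47 in place of 0.08, and then 13.9% of the interval calls were higher, not 65.2%. With slide row as a covariate 47.7% were higher, and with the row 1 arrays alone 48.4%. The number of higher calls fell to 644 with the covariate and to 606 in row 1 alone, while 705 and 645 were called lower.

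**Figure D2:**
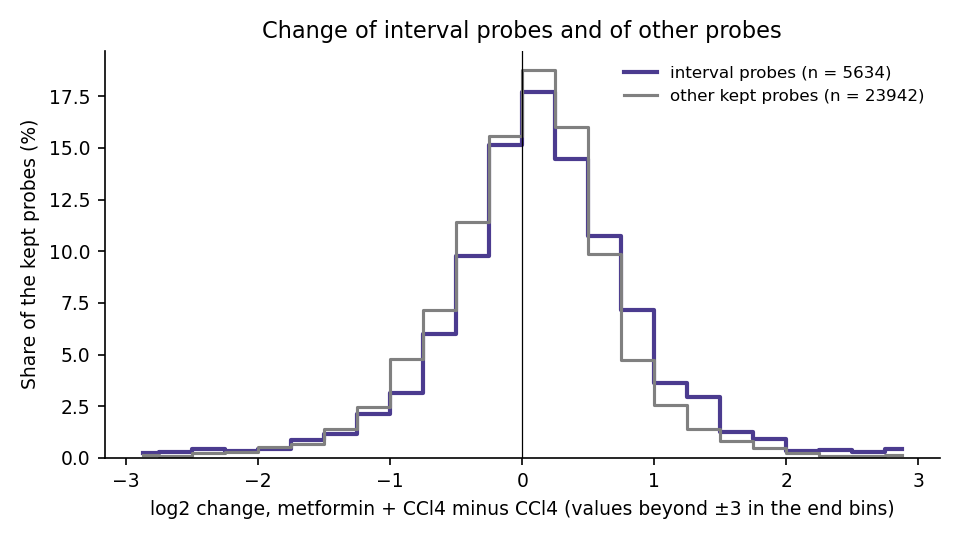
Share of probes in each bin of 0.25 of log2 change (metformin with CCl4 minus CCl4) for the 5634 kept interval probes and the 23942 other kept probes, with changes beyond the axis put in the end bins. Both peak just above 0, and beyond a rise of 0.5 the interval probes take the larger share. They also take the larger share beyond a fall of 2.

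Of the 8 interval probes with the strongest signal, chosen over all 10 arrays without regard to group, 1 was called. The strongest, A_30_P01027122 (R, chr1:193875525-193978800), read 9.49, 9.91 and 10.1 as the lowest, median and highest of the metformin livers, and 10.1, 10.5, 10.4 and 10.1 in C1 to C4. The groups just separated, and its fall of 0.43 ± 0.13 (SE; adjusted p = 0.0209 in limma) was lost without C2 (adjusted p = 0.069) or without C3 (adjusted p = 0.057). The only other kept probe of that interval, A_30_P01030147, also on R, rose by 0.76 (adjusted p = 0.00715), so 2 probes with the same suffix moved in opposite directions. The only interval that overlaps it, chr1:193923014-193923346, had 2 kept F probes, both called higher and detected on no CCl4 array.

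The other seven were not called with the 75th-percentile scaling. A_30_P01026458 (R, chr11:22681800-22707775) came closest: it read 8.07 to 8.35 in metformin livers and 7.96, 8.07, 8.04 and 7.94 in C1 to C4, a difference of 0.22 ± 0.09 (SE; adjusted p = 0.0588 in limma), and was called without M1 (adjusted p = 0.042) or without M2 (adjusted p = 0.048). A_30_P01022075 (R, chr17:17481706-17482457) had the smallest difference, with 8.51 to 8.68 in metformin livers, 8.51, 8.71, 8.56 and 8.59 in CCl4 livers, and a difference of -0.01 ± 0.08. The remaining 5, on chromosomes 6 (2 probes), 12, 14 and 19, had differences of 0.02 to 0.18 with overlapping groups. All 6 positive differences among these probes became negative with spike-in scaling, and 5 of them, all but that of A_30_P01026458, with slide row as a covariate. With spike-in scaling 5 of the 7, namely A_30_P01022075 (-0.56, adjusted p = 0.017), A_30_P01031448, A_30_P01031754, A_30_P01023523 and A_30_P01032016, were called lower.

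The largest rise was found on chromosome 16. The interval chr16:23992037-24001037 (9001 bp) holds 14 probes, of which 11 were kept, 9 rose and 1 fell. A_30_P01020303 (F) read -1.35, 0.51 and 1.53 as the lowest, median and highest of the metformin livers, and -3.93, -3.62, -5.20 and -3.57 in C1 to C4. The groups were far apart, and the rise was 4.38 ± 0.60 (SE; adjusted p = 0.0003 in limma), or 20.9-fold. All 6 kept F probes rose, and in none did the groups overlap. A_30_P01021853 and A_30_P01024256, detected on every array, rose by 3.20 and 3.44. A_30_P01020303 and A_30_P01033600 were detected on 3 CCl4 arrays, A_30_P01022030 on 2, and A_30_P01021475 on none, so its change is a bound of at least 5.09-fold.

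The R probes of that interval were less uniform. A_30_P01022259 was well above background on all metformin and no CCl4 array, and was at least 5.80-fold higher (means -2.04 and -4.94; adjusted p = 0.00158). Such a bound sets the brighter group's mean against, per array, the probe's own signal or that of the dimmest detected probe, whichever is higher. It holds for the processed signal alone: with normexp, which pulls dim signals together, the rise of this probe was 1.92-fold. A probe with such a bound was kept only through the group where it is high and so had to differ, and its p-value is no added support. A_30_P01021218 and A_30_P01025497, each detected on 5 metformin arrays and no CCl4 array, were at least 2.38-fold and 1.67-fold higher. A_30_P01031711 went the other way, from a CCl4 mean of -1.40 to a metformin mean of -2.13, a fall of 0.73 (adjusted p = 0.00753). A_30_P01021393 differed by 0.63 (adjusted p = 0.136). The overlapping interval chr16:23989160-23992539 had 1 kept probe of 3, A_30_P01024285 (F), detected on 5 metformin arrays and no CCl4 array and at least 2.0-fold higher. The 6 F calls of chr16:23992037-24001037 were also made with normexp background correction, with spike-in scaling and in row 1 alone, at medians of 1.94, 2.93 and 3.71 in place of 3.48.

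Chromosome 1 held the interval with the most kept probes that all moved one way. In chr1:138528250-138538250 (10001 bp), 11 of 20 probes were kept and all 11 rose. The F probes A_30_P01019463, A_30_P01020078 and A_30_P01031618 were detected on 2 CCl4 arrays each. They were kept only through the metformin group, where they are high, and their rises are no added support. The leading probe, A_30_P01026160 (F), read 0.87, 1.05 and 1.54 as the lowest, median and highest in metformin livers and -1.92, -2.22, -2.12 and -1.32 in C1 to C4. No CCl4 value came near a metformin value, and the rise was 3.02 ± 0.20 (SE; adjusted p = 1.67e-05 in limma), or 8.12-fold. The 9 F probes rose by 0.89 to 3.02, with a median of 2.63.

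The 2 kept R probes of the same interval moved far less. A_30_P01031394 rose by 0.43 (adjusted p = 0.00368) and A_30_P01028336 by 0.68 (adjusted p = 0.0449), the latter with overlapping groups. Of the 10 R probes on the array 8 were not kept, against 1 of the 10 F probes. With spike-in scaling neither R probe was called (-0.12 and 0.13), and 7 of the 9 F probes were. With slide row as a covariate all 9 F probes and 1 R probe were called.

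**Figure D3:**
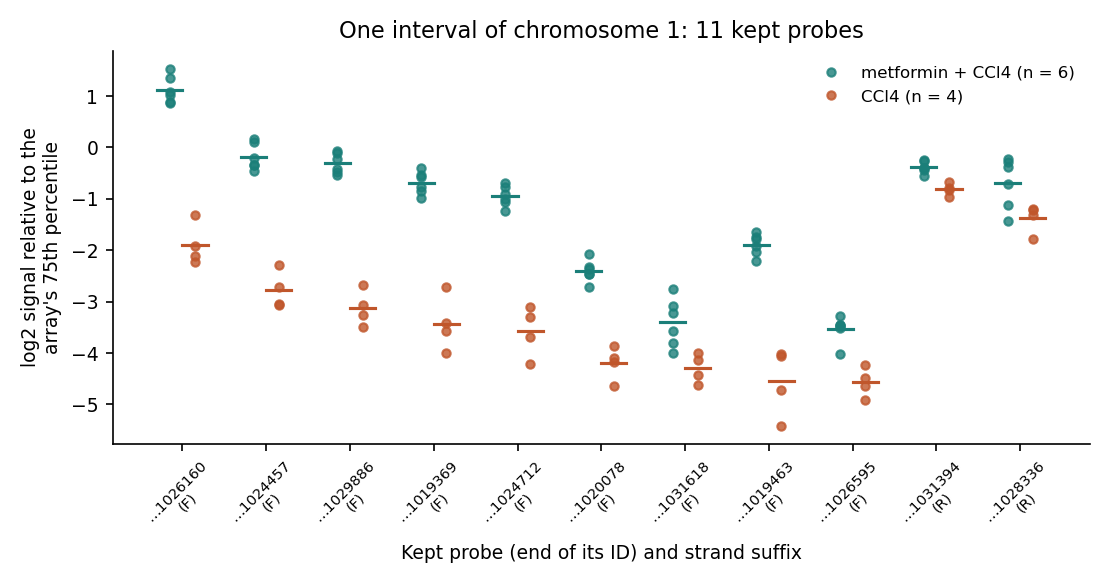
Log2 signal of the 11 kept probes of chr1 interval 138528250 to 138538250 relative to each array's 75th percentile; each point is 1 mouse liver and each short line a group mean, and probes are ordered by strand suffix and CCl4 mean. The 9 F probes are separated by 0.89 to 3.02 and the 2 R probes by 0.43 and 0.68.

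In chr4:126009815-126015875 (6061 bp), probed on F alone, 6 of 9 probes were kept and all rose, by 1.91 to 2.84. A_30_P01024738 read -0.79, 0.00 and 0.42 as the lowest, median and highest of the metformin livers, and -1.69, -3.42, -3.77 and -2.69 in C1 to C4. C1 was the CCl4 liver nearest to the metformin livers, and the rise was 2.84 ± 0.39 (SE; adjusted p = 0.000317). In row 1 alone 4 of the 6 were called.

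In chr10:39659425-39674200 (14776 bp), 6 of 10 probes were kept and all rose, by 0.91 to 1.46. Its 5 R probes were separated between the groups, whereas the F probe A_30_P01030493 overlapped. That F probe (1.07, adjusted p = 0.0443) was lost in 7 of the 10 fits that left out 1 array, so the interval rests on its R probes. The overlapping interval chr10:39666719-39679959 has 3 R probes, all brighter than those 5, and none was called (0.19, -0.08 and -0.17).

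In chr16:44717531-44724206 (6676 bp), 6 of 16 probes were kept and all rose, the 5 R probes by 1.0 to 1.85 and the F probe by 0.71, all with separated groups. Its overlapping interval chr16:44720170-44723911 had 1 kept probe of 3, A_30_P01023898, detected on 5 metformin arrays and no CCl4 array and at least 1.49-fold higher. With spike-in scaling 4 of the 6 kept probes were called in chr16:44717531-44724206 and 4 of 6 in chr10:39659425-39674200.

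Some large rises were less even among the CCl4 livers. A_30_P01024724 (R, chr13:73472571-73483846) read 4.88, 5.39 and 6.03 as the lowest, median and highest in metformin livers, but 4.80, 2.78, -0.27 and 2.36 in C1 to C4. C1 lay next to the metformin livers and C3 far below the rest, and the rise of 2.99 ± 0.74 (SE; adjusted p = 0.00809) was not called with slide row in the model (2.69, adjusted p = 0.078). The other R probes of that interval were lower, A_30_P01020909 by 0.82 (adjusted p = 0.0419) and, not called, A_30_P01020630 with -0.57. Of its 4 kept F probes 2 were called higher and 2 were not called, with changes of -0.51 to 1.66.

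A_30_P01031878 (F, chr3:87575891-87576343) had the same order of CCl4 livers. It read 1.08, 1.42 and 2.27 as the lowest, median and highest in metformin livers and 1.0, -0.70, -4.34 and -0.95 in C1 to C4. The rise of 2.74 ± 0.80 (SE; adjusted p = 0.0174) became 1.71 (adjusted p = 0.01) without C3 and was not called with slide row in the model (2.44, adjusted p = 0.13).

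In chr5:35975265-35982561, all 8 probes were kept. The 4 F probes rose by 1.06 to 2.59, led by A_30_P01021642 (metformin -1.58 to -0.38; C1 to C4 -3.55, -3.93, -2.51 and -4.57). Of the 4 R probes 1 rose, 1 fell and 2 were not called, with changes of -0.51 to 0.59. Of the F calls 2 were left with spike-in scaling and 1 in row 1 alone. A_30_P01017919 (R, chr4:82156098-82196298) rose by 2.29 ± 0.40 (SE; adjusted p = 0.00115), and of the 6 kept probes of that interval 4 rose and 2 were not called.

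A_30_P01026426 (R, chr1:45066850-45095650) rose by 2.34 ± 0.47 (SE; adjusted p = 0.00248), reading -2.75, -0.92 and -0.54 as the lowest, median and highest in metformin livers against -2.92, -3.91, -4.43 and -3.57 in C1 to C4. All 3 kept probes of that interval rose. The other 2, A_30_P01024674 and A_30_P01031973, were detected on 2 CCl4 arrays each and kept only through the metformin group, where they are high. With slide row in the model the rise of A_30_P01026426 was 1.20 (adjusted p = 0.029), and in row 1 alone none of the 3 was called.

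Among falls, the widest run of probes was on chromosome 2. In chr2:157361470-157379813 (18344 bp), 11 of 20 probes were kept and 10 fell. A_30_P01023980 (R) read -3.16, -2.37 and -2.23 as the lowest, median and highest in metformin livers and 0.13, 0.25, -0.13 and -0.29 in C1 to C4. The groups were far apart, and the fall was 2.52 ± 0.19 (SE; adjusted p = 2.4e-05 in limma), or 5.72-fold.

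All 10 R probes of that interval were kept and 9 of them fell, by 1.58 to 2.52, with separated groups. The remaining one, A_30_P01031799, was also the brightest R probe there and was not called (0.29, adjusted p = 0.0953). Of the 10 F probes only A_30_P01021203 was kept, and it fell by 0.91 (adjusted p = 0.00159). The same number of falls, 10 of 11, was called under normexp, spike-in scaling, slide row as a covariate and row 1 alone.

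A locus of overlapping intervals on chromosome 9 held the largest falls among the probes named here. In chr9:65368908-65377592 (8685 bp) all 3 probes, on R, were kept, and none was well above background on any metformin array. A_30_P01024579 read -6.80 to -5.75 in metformin livers and -2.34, -2.02, -1.60 and -2.18 in C1 to C4, and was at least 6.50-fold lower with metformin (means -6.32 and -2.04; adjusted p = 1.12e-05), or 2.11-fold with normexp. A_30_P01020239 and A_30_P01018137 were at least 2.99-fold and 1.38-fold lower, the latter not called with normexp (-0.35, adjusted p = 0.06).

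The neighbouring interval chr9:65376063-65390480 split by probe. A_30_P01019072 (R) read -3.91, -2.20 and -1.93 as the lowest, median and highest in metformin livers and -0.27, 0.28, 0.45 and 0.16 in C1 to C4, a fall of 2.61 ± 0.35 (SE; adjusted p = 0.000259 in limma). A_30_P01020903 (R), detected on no metformin and all CCl4 arrays, was at least 5.71-fold lower (1.89-fold with normexp), and A_30_P01024094 (R) fell by 2.31. The remaining R probes, A_30_P01019472 with -0.09 and A_30_P01029030 with -0.33, were not called, and of the 3 kept F probes 1 fell, by 0.40.

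A second locus of chromosome 2, of 2 overlapping intervals, was lower on R alone. In chr2:158179435-158187316 both probes, on R, fell, and A_30_P01020502 read -3.89 to -1.81 in metformin livers and -0.01, -0.46, -0.41 and -0.62 in CCl4 livers (a fall of 2.44 ± 0.32, SE; adjusted p = 0.000241). In the enclosing interval chr2:158169020-158191295, 6 of the 8 kept R probes fell and neither of the 2 kept F probes was called.

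Further intervals also carried falls. In chr8:59994102-59994797 (696 bp) both kept probes, on F, fell, and A_30_P01027000 read -3.99 to -3.06 in metformin livers and -0.89, -0.56, -0.41 and -1.12 in CCl4 livers (a fall of 2.68 ± 0.22, SE; adjusted p = 2.59e-05). The enclosing interval chr8:59994074-60002058 had 1 kept probe of 10, A_30_P01018860 (R), which was called higher (at least 1.48-fold) with overlapping groups and was detected on no CCl4 array. In chr13:34693404-34717987, 4 of the 5 kept probes fell, all on R, led by A_30_P01018665 (-2.25 ± 0.24, adjusted p = 8.8e-05 in limma). On chromosome 11, A_30_P01022597 (F, chr11:87872568-87880978) fell by 2.45 and A_30_P01023053 (F, chr11:93994795-94017045) by 2.06. In both of these C4 was the CCl4 liver nearest to the metformin livers, at -2.85 and -2.16. The interval of A_30_P01022597 had 6 kept probes, and the other 5 were not called. Both kept probes of the interval of A_30_P01023053 fell.

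A_30_P01032520 (F, chromosome 18) was uneven among the CCl4 livers. It read -4.15 to -3.10 in metformin livers and -2.43, -1.29, 0.74 and -3.0 in C1 to C4. The fall of 2.29 ± 0.60 (SE; adjusted p = 0.0107) was not called with slide row in the model (-2.44, adjusted p = 0.056). Of the 5 kept probes of its interval 2 were called lower, 1 was called higher (the R probe A_30_P01017774, by 1.17) and 2 were not called.

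Smaller falls ran through all kept probes of some intervals, though not always through the intervals that overlap them. In chr15:83266264-83294664 all 5 kept probes, on R, fell by 0.72 to 1.01, and the 5 F probes were not kept. Of these R probes A_30_P01021150, detected on 2 metformin arrays, was kept only through the CCl4 group, where it is high. The inner interval chr15:83281223-83284791 had 1 kept probe, which also fell, by 0.93. In chr12:45415565-45423519 all 4 kept probes, on F, fell by 0.43 to 0.71, but 1 of them was called with slide row as a covariate and none in row 1 alone. The inner interval chr12:45418006-45418737 has 3 brighter probes, also on F, that differed by 0.33, 0.35 and 0.38 and were not called.

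In chr16:21794415-21815365 all 5 kept probes, on F, fell by 0.62 to 0.99, each with separated groups. The interval chr16:21794418-21809113 lies inside it, and its 3 probes, also on F, all rose, by 0.70 to 0.86. A_30_P01022784 of the inner interval read 0.40, 0.62 and 0.69 as the lowest, median and highest in metformin livers and -0.26, -0.18, -0.14 and -0.06 in C1 to C4 (adjusted p = 0.000156). A_30_P01020932 of the outer interval read -2.64, -2.43 and -2.03 against -1.41, -1.53, -1.32 and -1.27 (adjusted p = 0.000241). Within 1 stretch and 1 strand suffix, probes separated the groups in opposite directions.

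Probes detected in 1 group alone gave further bounds. Higher with metformin were A_30_P01028585 (F, chr17:46972160-46997919), at least 5.28-fold, A_30_P01029457 (F, chr4:101040523-101080248), at least 4.26-fold, and A_30_P01032656 (F, chr2:132079092-132086642), at least 3.23-fold. With normexp these rises were 1.83-fold, 1.59-fold and 1.35-fold. Lower were A_30_P01027795 (F, chr13:83867711-83878140), at least 3.94-fold, and A_30_P01029445 (R, chr12:81217572-81233910), at least 3.64-fold, with normexp 1.6-fold and 1.52-fold. All 5 were called with either correction, which is no added support, since each was kept only through the group where it is high.

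Around the last of these the probes were divided. Of the 10 kept probes of chr12:81217572-81233910, 5 were called lower, all on R, and 2 higher, the F probe A_30_P01019828 by 0.83 and the R probe A_30_P01027714 by 0.96. In the inner interval chr12:81221532-81232030 the 1 kept probe, A_30_P01017437 (F), rose by 3.67 (adjusted p = 0.00214) and was detected on 1 of 4 CCl4 arrays. Next to A_30_P01032656, the F probe A_30_P01026232 of chr2:132079092-132087069 rose by 1.99, and was detected on all arrays.

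These intervals are examples, and uniform change was not the rule. Of 795 intervals with at least 3 kept probes, 62 had every kept probe called higher, 27 had every one called lower and 214 had none called. Of the 1407 interval strands with at least 2 kept probes, all were called in 216, some in 623 and none in 568. Where 2 or more probes of an interval strand were called, all were higher in 267, all lower in 129, and the directions were mixed in 44 of 440.

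Strand made little difference to how often a probe was kept or called. Of 8171 F probes 2736 were kept (33.5%), with 668 higher and 308 lower. Of 8010 R probes 2893 were kept (36.1%), with 653 higher and 397 lower. The share of kept probes called was 35.7% on F and 36.3% on R, against 45.2% of all kept probes. Of the 13 probes without a suffix 5 were kept and none was called. Most intervals were probed on 1 strand: 1251 on F alone and 1222 on R alone, against 1067 on both. Of those 1067, 531 had kept probes on both strands, 195 on F alone, 210 on R alone and 131 on neither.

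Within an interval, however, the strands changed with little relation to each other. The log2 changes of the first and second kept probe of an interval strand, in order of probe ID, had a Pearson r of 0.57 over 1407 interval strands. The first F probe and the first R probe of an interval had an r of 0.10 over 531 intervals. In intervals kept on both strands alone, the same-strand r was 0.48 over 647 interval strands. Points of these correlations share the same 10 arrays, and intervals of 1 locus overlap, so they are given without a p.

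**Figure D4:**
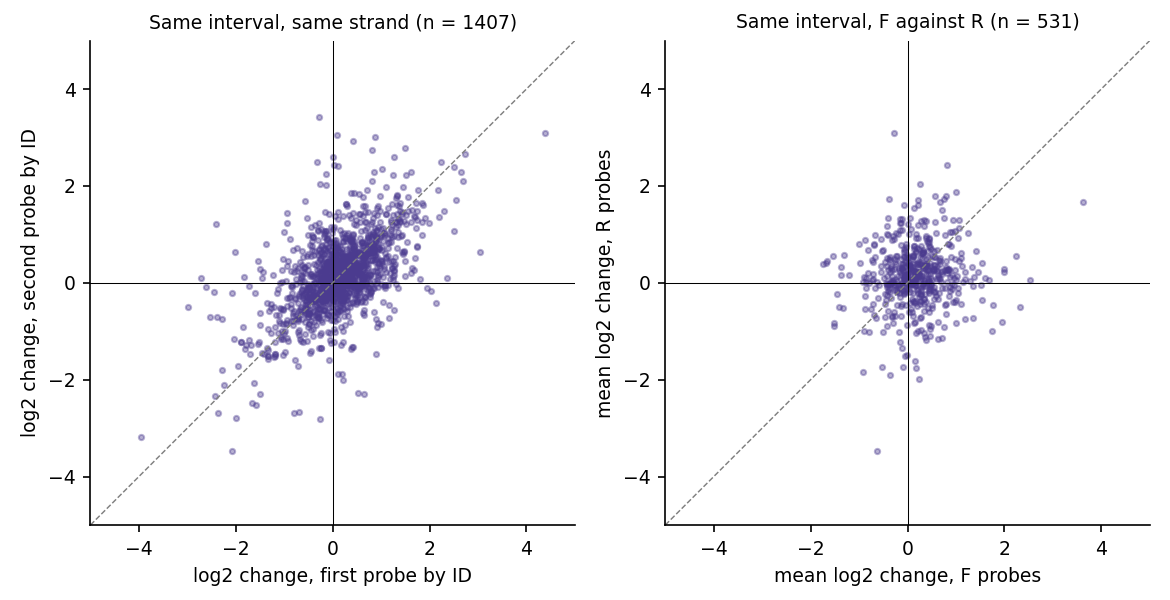
Log2 change with metformin of pairs of probes in the same interval: left, first against second kept probe of 1 strand (1407 interval strands); right, mean of the F probes against mean of the R probes (531 intervals). Points on the left rise together but scatter widely about the dashed line of equal change (r of 0.57). Those on the right spread round 0 with no clear slope (r of 0.097).

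Among the 531 intervals kept on both strands, 141 had a called probe on both, 106 on F alone, 131 on R alone and 153 on neither. In 67 of the 141 all calls were higher, in 11 all were lower, in 43 F and R were opposite, and in 20 the calls were mixed within a strand. Counting any pair of opposite calls on F and R, 63 intervals had one.

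In the most opposed, chr10:5950116-5958250, the F probe A_30_P01031833 rose by 2.33 and the R probe A_30_P01027293 fell by 2.31. Both were near background in 1 group: A_30_P01031833 was detected on 5 metformin and 1 CCl4 array, with overlapping groups, and was not called with normexp (0.37, adjusted p = 0.088) or with slide row in the model (1.33, adjusted p = 0.12). The opposition there rests on that 1 F probe. In the inner interval chr10:5956284-5956943 all 3 R probes were kept, and 1 of them, A_30_P01030183, rose, by 0.51 (adjusted p = 0.0438).

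In chr13:94182877-94203852 both kept F probes were called higher, A_30_P01024215 by 1.25 and A_30_P01029294, detected on no CCl4 array, at least 1.80-fold, and 3 of 5 kept R probes fell, by 1.16 to 1.56. Both F probes were kept only through the metformin group, A_30_P01024215 with detection on 2 CCl4 arrays. The falling R probes A_30_P01026215 and A_30_P01030743, detected on 4 and 1 metformin arrays, were kept only through the CCl4 group. Among these calls, A_30_P01029260 (R, a fall of 1.16) alone was kept in both groups. The F probe A_30_P01024215 read -4.10 to -2.81 in metformin livers and -4.36, -5.03, -4.87 and -4.59 in CCl4 livers, and the R probe A_30_P01026215 read -4.62 to -3.52 and -3.06, -2.40, -2.85 and -2.28. Neither F rise was called with normexp, at 0.21 and 0.35, whereas the 3 R falls were. No kept probe of the intervals that overlap it was called lower. In chr13:94182877-94203935, with the same start, none of the 4 kept R probes was called (-0.03 to 0.33), and in chr13:94200051-94200598 none of 3 (0.18 to 0.37). In chr13:94190118-94190496 the kept R probe A_30_P01027321 rose by 0.47 (adjusted p = 0.0189). On the F side, all 3 probes of chr13:94180737-94182912 rose, by 0.87 to 1.32.

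An interval of chromosome 18 held the brightest of the opposed pairs. Its R probe A_30_P01029996 read 1.27 to 1.64 in metformin livers and 2.12, 2.39, 2.22 and 1.98 in CCl4 livers, a fall of 0.70, and its F probe A_30_P01028595 read -1.55 to -0.67 and -2.34, -2.13, -2.06 and -2.81, a rise of 1.24. Both pairs of groups were separated, and both calls were made in row 1 alone too, with a rise of 0.80 for the F probe. The interval's other kept R probe, A_30_P01019238, also fell, by 2.53, and was detected on 1 metformin array. Its other kept F probe, A_30_P01024659, was called lower (-0.95, adjusted p = 0.0356) with overlapping groups, so the F probes were divided.

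In chr15:73227424-73257474, 4 of 5 kept R probes fell while the F probe A_30_P01023481 was at least 1.48-fold higher and A_30_P01017585, also on F, at least 1.5-fold lower, each below background on all arrays of 1 group. That F rise was not called with normexp, spike-in scaling or slide row as a covariate. The inner interval chr15:73231192-73231819 has 2 R probes, neither of them called (0.01 and 0.24).

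A stretch of chromosome 19 held 6 overlapping intervals, chosen after their values were seen because the third brightest probe lies there. In chr19:5798135-5800557 all 3 probes, on R, rose by 0.95 to 0.98. A_30_P01021078 read 4.30, 4.52 and 5.18 as the lowest, median and highest in metformin livers and 4.11, 3.61, 3.05 and 3.59 in C1 to C4 (adjusted p = 0.00461 in limma). Next to it, in chr19:5801802-5802597, none of the 3 R probes was called (0.03 to 0.22). In chr19:5834117-5835940 the 3 R probes were not called either, with -0.45 to -0.36. The enclosing interval chr19:5771425-5848475 had 11 of 12 probes kept. Of these 7 rose, all on F, by 0.43 to 1.90, and its R probe was not called. Of the F probes in the other two intervals, none of 3 was called in chr19:5795690-5797464, and in chr19:5841103-5845579 A_30_P01030929 rose by 0.66 and A_30_P01029504 fell by 0.64.

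By chromosome, the share of kept interval probes that was called ran from 27.3% on chromosome 3 to 48.8% on chromosome 16, against 36.0% of all kept interval probes and 45.2% of all kept probes. On chromosome 16, 72 of 215 were higher and 33 lower, and 9 of the 72 came from chr16:23992037-24001037 alone. Chromosome 18 followed with 44.6%. Chromosome 15 was the only one with more lower (57) than higher (42) calls, and its median change was -0.04. On chromosome 19, 37 were higher and 8 lower. Detection varied too, from 27.0% of the probes kept on X to 39.6% on chromosome 17. Since changes of 2 probes of an interval strand were correlated (r of 0.57), differences between chromosomes rest on fewer units than probes and were not tested.

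**Figure D5:**
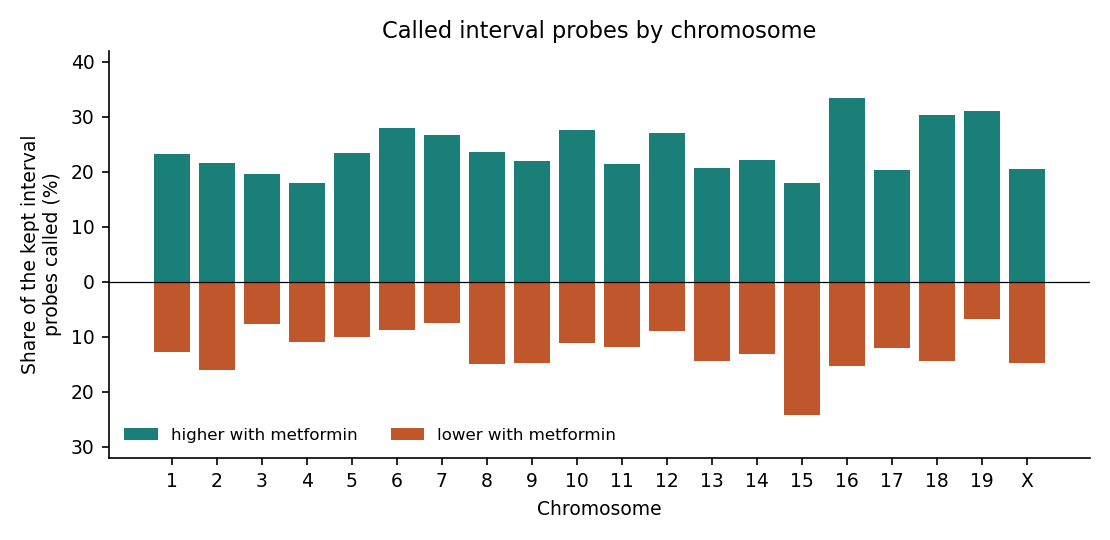
Share of the kept interval probes of each chromosome called higher (above 0) or lower (below 0) with metformin by limma (adjusted p under 0.05). Chromosome 16 has the largest share called (48.8%), and chromosome 15 is the only one with a larger share lower than higher.

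Some interval probes were flat with the 75th-percentile scaling, chosen as those with the smallest change and a residual SD under the median. Which probes are flat depends on that scaling, since spike-in scaling put the median change of all kept probes at -0.47 in place of 0.08. A_30_P01024000 (R, chr5:125078875-125098525) read 0.07 to 0.69 in metformin livers and 0.30, 0.61, 0.16 and 0.21 in C1 to C4. A_30_P01019218 (R, chr5:107503800-107515575) and A_30_P01022322 (R, chr8:18587198-18592948) were as flat, each with adjusted p = 0.995. Probes near them were not all flat: A_30_P01023236 (F, chr5:107504871-107507830), in an interval inside that of A_30_P01019218, fell by 1.10, and 2 of the 4 other kept probes in the interval of A_30_P01022322 rose.

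Long noncoding RNAs with a gene name were measured by other probes, with the brightest kept probe taken per gene, and served as a comparison. Whether some intervals lie within these same genes was not checked, so the comparison need not be with different RNAs. Of 41 on a list, 26 had a kept probe, of which 7 were higher (26.9%) and 2 lower (7.69%), against 26.7% and 18.5% of all kept probes, with a median change of 0.18. Neat1, the scaffold of nuclear paraspeckles, rose by 2.11 ± 0.36 (SE; adjusted p = 0.00105 in limma), Zfas1, a host of small nucleolar RNAs, rose by 1.19, and Mir22hg, the host transcript of miR-22, fell by 1.17. Malat1, a nuclear RNA of splicing speckles, differed by -0.95 (adjusted p = 0.0523) and was not called.

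Some markers of other liver cells were called lower with metformin, beside 18.5% of all kept probes. Lower calls were made for 4 of 6 stellate and myofibroblast markers, whose mean over the list was -1.07 to -0.26 in metformin livers and -0.24 to 0.54 in CCl4 livers, and for 4 of 4 neutrophil markers, with -0.87 to 1.36 and 1.21 to 2.46. Lower calls were also made for 2 of 5 macrophage, 2 of 4 endothelial, 3 of 3 bile duct and 3 of 3 erythroid markers, and for none of the 2 B and plasma cell or 3 T and NK cell markers, the latter with a median difference of 0.25. No list had a marker called higher, and in none were all markers undetected. The part of these cells in the changes of interval probes was not tested.

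The authors' deposited table held 4595 probes, 719 of them (15.6%) interval probes, with 429 higher and 290 lower with metformin by its group means. Of these, 633 passed the detection rule here, and all 633 were called with the same sign. Both analyses start from the same arrays, so this is no independent support.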

How the data were processed

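RNA from 10 livers was hybridised to Agilent 1-colour mouse arrays, 1 array a mouse. Groups come from the sample titles, and nothing else was used to group samples. The deposited scanner files hold spot intensities made with Feature Extraction 10.7.3.1 on a grid of build mm9, already background-subtracted and detrended, per the file headers. The authors' deposited table holds log2 values after quantile normalization, limited to probes past a filter, per its first line. The files have neither a mean signal nor a gene name column, so normexp used median signals, and names came from accessions matched to RefSeq (GRCm38.p6, names only), for 28664 probes.

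Spots were averaged per probe after dropping 135 to 179 irregular ones per array; no spot was saturated. Log2 intensity minus the 75th percentile was tested with limma 3.58.1 (R 4.3.3, two-sided) over 29576 probes with Benjamini-Hochberg adjustment. Depth has no counterpart on arrays, and 6 and 4 arrays limit the precision. On simulated data (29576 probes) limma recovered 39% of 100 probes changed by 1 on the log2 scale and 3% of 100 changed by 0.5, with 2 false calls. All other simulated probes were unchanged, whereas 45.2% of all kept probes were called in the data. The recovered shares therefore need not hold for the real fit. The members and lists were chosen with earlier results of these data known. Named were the 8 strongest probes, the 8 largest rises and falls among probes detected on at least 75% of arrays of both groups with separated values, the 4 largest bounds each way, 4 intervals with all kept probes (at least 3) called one way, 4 with opposed strands and the 3 flattest probes. Figures were drawn with matplotlib 3.10.9.

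Same-numbered mice of the 2 groups did not deviate together, so no block was used. Alternatives were normexp, 3 scalings, other detection rules, 1 feature per interval strand, slide row, leaving out each array, a replicate block and array weights.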

Additional observations from a re-analysis of the deposited data

Results flagged for a closer look

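In 190 groups of values of 95 named probes, 16 had a liver far from the others of its group by Dixon's test; chance flags about 1 in 20 groups. In metformin livers, M3 was lowest for A_30_P01019072 (-3.91), A_30_P01026595 (-4.03) and A_30_P01024563 (-1.45), and M1 was lowest for A_30_P01023914 (-3.25) and A_30_P01019218 (-0.60). M5 was highest for A_30_P01022597 (-3.02) and M2 for A_30_P01017585 (-5.64). In CCl4 livers, C4 was highest for A_30_P01017968 (-2.48), A_30_P01024563 (-0.12), A_30_P01026419 (-1.63) and A_30_P01023914 (-2.17), and lowest for A_30_P01023053 (-2.16). C3 was lowest for A_30_P01029457 (-6.53) and highest for A_30_P01018137 (-3.52), and C1 was lowest for A_30_P01029445 (-3.49) and highest for A_30_P01027293 (-2.73). A_30_P01019218 was not called; the calls of the other probes were also made with the array in question left out.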

How the results depend on the processing

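Leaving out 1 array in turn gave 1688 to 2075 called interval probes (2026 with all arrays), 1052 to 1416 higher and 543 to 727 lower. Higher calls were 850 with normexp, 371 with spike-in scaling, 641 with 1 feature per interval strand, 644 with slide row as a covariate, 606 with row 1 alone and 794 with the replicate block; without the block on the same mice, an alternative chosen after seeing the data, they were 977. All calls came to 958 of 2811 features with 1 per interval strand, 1349 with slide row as a covariate and 1251 with row 1 alone, and to 1367 with the block. Lower calls were 2290 with spike-in scaling and 317 with 1 feature per interval strand, which has fewer features to test. The share of interval features called was 24.8% with normexp, against 44.1% of other kept probes, and 47.2% with spike-in scaling, against 49.5%. It was 34.1% with 1 feature per interval strand, against 48.1%, and 24.3% with the block, against 32.3%. The looser flag for a signal above background kept 9602 interval probes. The cause of the other moves was not tested. Deviations of same-numbered mice correlated at -0.13, -0.11, 0.08 and -0.00, so the numbers do not pair the mice.

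Of 85 named probes that were called, 51 were called under every alternative run. Normexp, which pulls dim signals together, lost 14, slide row 1 alone 24, slide row as a covariate 16, the replicate block 10, spike-in scaling 9 and leaving out 1 array 7. With normexp all 85 kept their sign, and in 72 the change was smaller by over 1.5 times, with a median ratio of 2.26; low signal over background limits how large these changes can be said to be. A_30_P01031394 changed sign, with spike-in scaling (-0.12). Among strong probes that were not called, signs turned as follows. With spike-in scaling A_30_P01031448 was at -0.41, A_30_P01031754 at -0.51, A_30_P01023523 at -0.53, A_30_P01032016 at -0.49, A_30_P01031264 at -0.37 and A_30_P01026458 at -0.33. With slide row as a covariate, and with row 1 alone, A_30_P01031448 was at -0.15, A_30_P01031754 at -0.17, A_30_P01023523 at -0.32, A_30_P01032016 at -0.34 and A_30_P01031264 at -0.21. With median scaling A_30_P01031754, A_30_P01023523 and A_30_P01032016 were at -0.025, -0.043 and -0.00063. With quantile normalization A_30_P01023523, A_30_P01032016 and A_30_P01031264 were at -0.096, -0.13 and -0.027. With the replicate block, and on the same mice without it, A_30_P01031754, A_30_P01023523 and A_30_P01032016 were at -0.011, -0.13 and -0.097, and with array weights A_30_P01023523 was at -0.019. A_30_P01022075 turned to 0.043 with normexp and was called lower with spike-in scaling (-0.56). With 1 array left out in turn, A_30_P01022075 ranged from -0.041 to 0.027, A_30_P01023523 from -0.11 to 0.11, A_30_P01032016 from -0.0028 to 0.16 and A_30_P01031754 from -0.026 to 0.093.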

Other observations

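Another 86 interval probes of the authors' deposited table did not pass the detection rule used here. In the group means that it gives, 51 of them were higher and 35 lower with metformin, with a median absolute difference of 1.44 on the log2 scale. Of these, 29 were well above background on no array.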
